A study of Mus musculus with 21 samples.

Results

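Tuft cells of the small intestine were compared with the other epithelial cells of the same organ across all genes of the deposited count tables. Of the 21 RNA libraries of the series, 6 were used, 3 of tuft cells (replicates 2, 3 and 4) and 3 of non-tuft epithelium (replicates 1, 2 and 3), chosen by their titles and sorting labels. All came from naive 12-week-old male mice of strain C57BL6.Il25(Flare25/Flare25), 1 mouse a library, which carry a fluorescent reporter in the Il25 gene. Live EPCAM-positive, CD45-negative cells with reporter signal were sorted as tuft cells (35000 to 36000 cells a library), and those without it as non-tuft cells (52000 to 57000 cells a library). The labels do not say whether a tuft and a non-tuft library share a mouse. The reporter gate used Il25, so that gene's own difference is no result. The mRNA was amplified without molecular identifiers, and gene counts summed to 46846738 to 62268881 per tuft library and 52354113 to 73574745 per non-tuft library. Levels are given as CPM, counts scaled to the library total and by TMM over these 6 libraries. Differences are log2 fold changes of tuft over non-tuft cells with their standard error (SE), tested with edgeR's quasi-likelihood method and Benjamini-Hochberg adjustment over 16063 genes. Genes past an adjusted p of 0.05 whose levels differed 2-fold or more are named as called.

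Tuft cells are rare chemosensory cells scattered through mucosal epithelia. Ligands in the lumen act on G protein-coupled receptors, phospholipase C releases calcium from the endoplasmic reticulum, and the cation channel Trpm5 then depolarises the cell. In the small intestine they are known as a source of IL-25, of acetylcholine and of eicosanoids, and they form through the transcription factor Pou2f3. The non-tuft sort holds the remaining lineages of the epithelium, which are enterocytes, goblet, Paneth, enteroendocrine, stem and dividing cells.

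The 3 defining markers separated the groups in every library. Dclk1, a microtubule-associated kinase (ENSMUSG00000027797, GRCm38 chromosome 3 from 55242364 to 55539068 on the plus strand), was at 2316, 1973 and 1980 CPM in tuft cells, against 21.01, 19.7 and 26.01 CPM in non-tuft cells. Trpm5 (ENSMUSG00000009246, GRCm38 chromosome 7 from 143069153 to 143094642 on the minus strand) was at 4765, 4362 and 3695 CPM in tuft cells, against 26.4, 24.7 and 58.1 CPM in non-tuft cells. Pou2f3 (ENSMUSG00000032015, GRCm38 chromosome 9 from 43123939 to 43210369 on the minus strand) was at 553, 653 and 485 CPM in tuft cells, against 9.63, 9.54 and 12.3 CPM in non-tuft cells. The lowest tuft library stood far above the highest non-tuft library for each of the 3 genes.

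Lists of cell type markers were used to describe both sorts, beside 13% of all genes tested that were called higher and 13.9% lower. All 25 tuft markers were called higher in tuft cells, and their summed level in non-tuft cells was 2.27% of that in tuft cells. All 12 goblet, all 11 Paneth and all 23 enteroendocrine markers were lower, and 19 of 20 proliferation markers. Of 13 stem cell markers 10 were called lower (8 to 10 with 1 library left out) and 1, Sox9, higher. The stem list summed in tuft cells to 72.4% of its non-tuft level. Summed over its list, the tuft level was 2.37% of the non-tuft level for goblet, 2.61% for Paneth and 7.29% for enteroendocrine markers. Enteroendocrine RNA varied between tuft libraries, with Sst, the somatostatin gene, at 2.28, 169.9 and 39.5 CPM in tuft cells, against 1593, 1478 and 883 CPM in non-tuft cells. The summed level of enterocyte markers went the other way, at 38590, 37110 and 42320 CPM in tuft cells, against 22080, 20560 and 20900 CPM in non-tuft cells. Of 23 enterocyte markers 3 were called higher (5 without tuft library 2) and 0 lower by edgeR, with a median log2 fold change of 0.63. The share called higher, 13.0%, was that of all genes tested. DESeq2 and voom gave the same counts, and at an unadjusted p under 0.05 edgeR had 19 higher and 0 lower. The share of all genes at that unadjusted p was not computed. T cell and intraepithelial lymphocyte markers had 9 members called higher (6 to 9 with 1 library left out) and 0 lower among 12 tested by edgeR. The counts were the same by DESeq2 and voom, with 0 lower at an unadjusted p under 0.05 by edgeR. The list summed to 75.5 to 92.9 CPM in tuft cells, against 11.8 to 23.2 CPM in non-tuft cells. Cd3e was at 9.48 ± 2.96 CPM in tuft cells, against 1.45 ± 0.867 CPM in non-tuft cells, not called with all 21 libraries in the fit. Gzma, Gzmb, Ccl5, Cd3g, Cd7, Cd8a and Nkg7 also lost their call in that fit, while Lck kept it. Cd3d was at 0.265 ± 0.216 CPM in tuft cells, against 0.218 ± 0.0653 CPM in non-tuft cells, and not called. Myeloid and mast cell markers had 3 members called higher (5 without tuft library 4, 0 with all 21 libraries in the fit) and 0 lower among 10 tested by edgeR. DESeq2 called 3 higher and 1 lower and voom 4 and 0, and at an unadjusted p under 0.05 edgeR had 4 and 1. They summed to 48.4, 48.0 and 23.97 CPM in tuft libraries 2, 3 and 4, against 20.2 to 24.9 CPM in non-tuft libraries. Of the 16 listed, 1 was at 0 in all tuft libraries (Fcer1a), and Tyrobp, C1qc and Adgre1 were called higher. Airway secretory markers summed to 159.8 and 84.0 CPM in tuft libraries 2 and 3, to 0.972 CPM in tuft library 4 and to 1.87 to 4.22 CPM in non-tuft cells, with 4 of 5 tested called higher (7 of the 9 listed without tuft library 4). Mitochondrially encoded transcripts took 24.1 to 33.5% of counts in tuft cells, against 18.6 to 23.7% in non-tuft libraries. In sorted bulk samples, fewer cells of a type and less RNA per cell cannot be told apart, and the part of these markers in the results below was not tested.

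**Figure D1:**
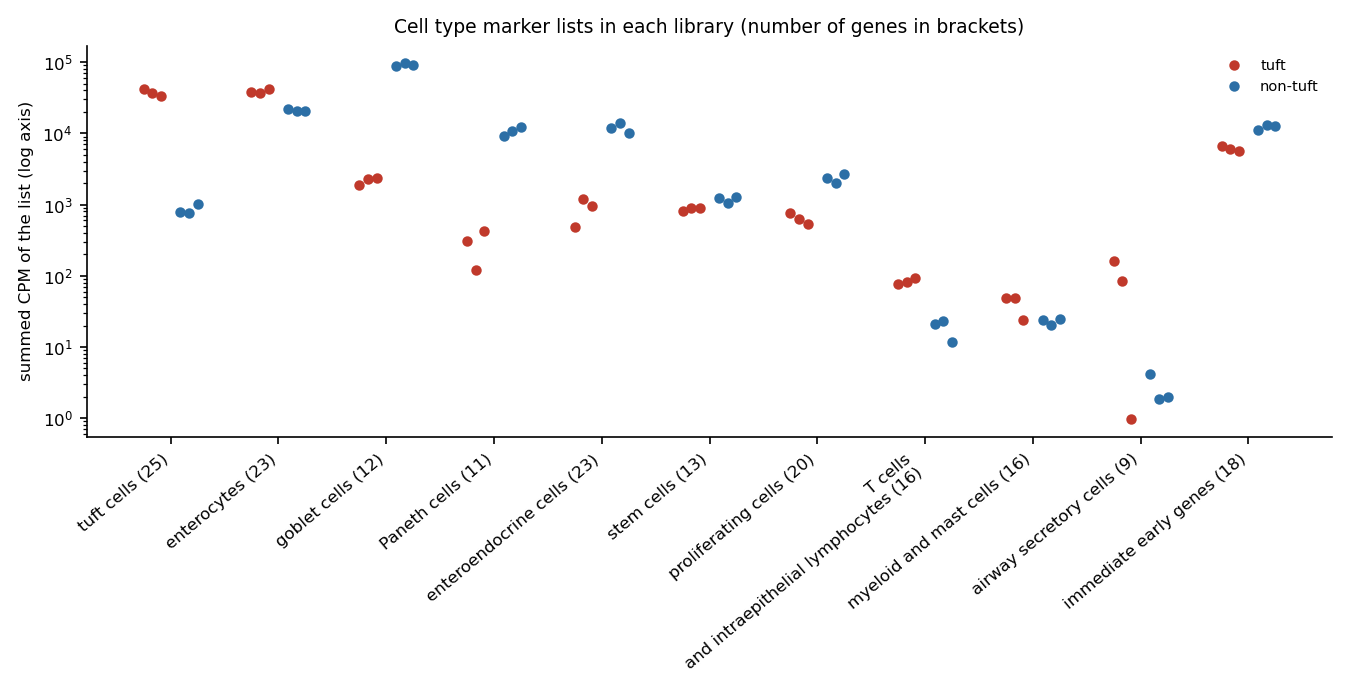
Summed CPM of each marker list (log axis) in the 3 tuft and the 3 non-tuft libraries, each point 1 library. The tuft list sits at 33610 to 42400 CPM in tuft cells, against 759.8 to 1017 CPM in non-tuft cells, the goblet, Paneth and enteroendocrine lists the other way round, and the airway list in tuft libraries 2 and 3.

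Tuft cells had 2092 genes called higher (13% of those tested) and 2235 called lower (13.9%), together 26.9%. The median log2 fold change over all genes tested was -0.032. Genes called higher held 23.8 to 27% of the summed CPM in tuft cells, against 6.27 to 6.71% in non-tuft libraries, and those called lower 2.74 to 2.96% in tuft cells, against 22 to 23.8% in non-tuft libraries. A mean of at least 10 CPM in tuft and under 1 CPM in non-tuft cells was reached by 85 genes, and the reverse by 53. The roles of the called genes are taken in turn below, and each count from the fit of 6 libraries is set against the shares of 13% and 13.9%. A fit of all 21 libraries called 785 genes higher and 539 lower in total, and a filter of 5 CPM in 3 libraries called 1455 and 1411. Class counts given for these alternatives are to be read beside those totals, not beside the shares. A gene had to pass a filter on low counts to be tested, and members that did not pass are given as the difference between those in the files and those tested.

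**Figure D2:**
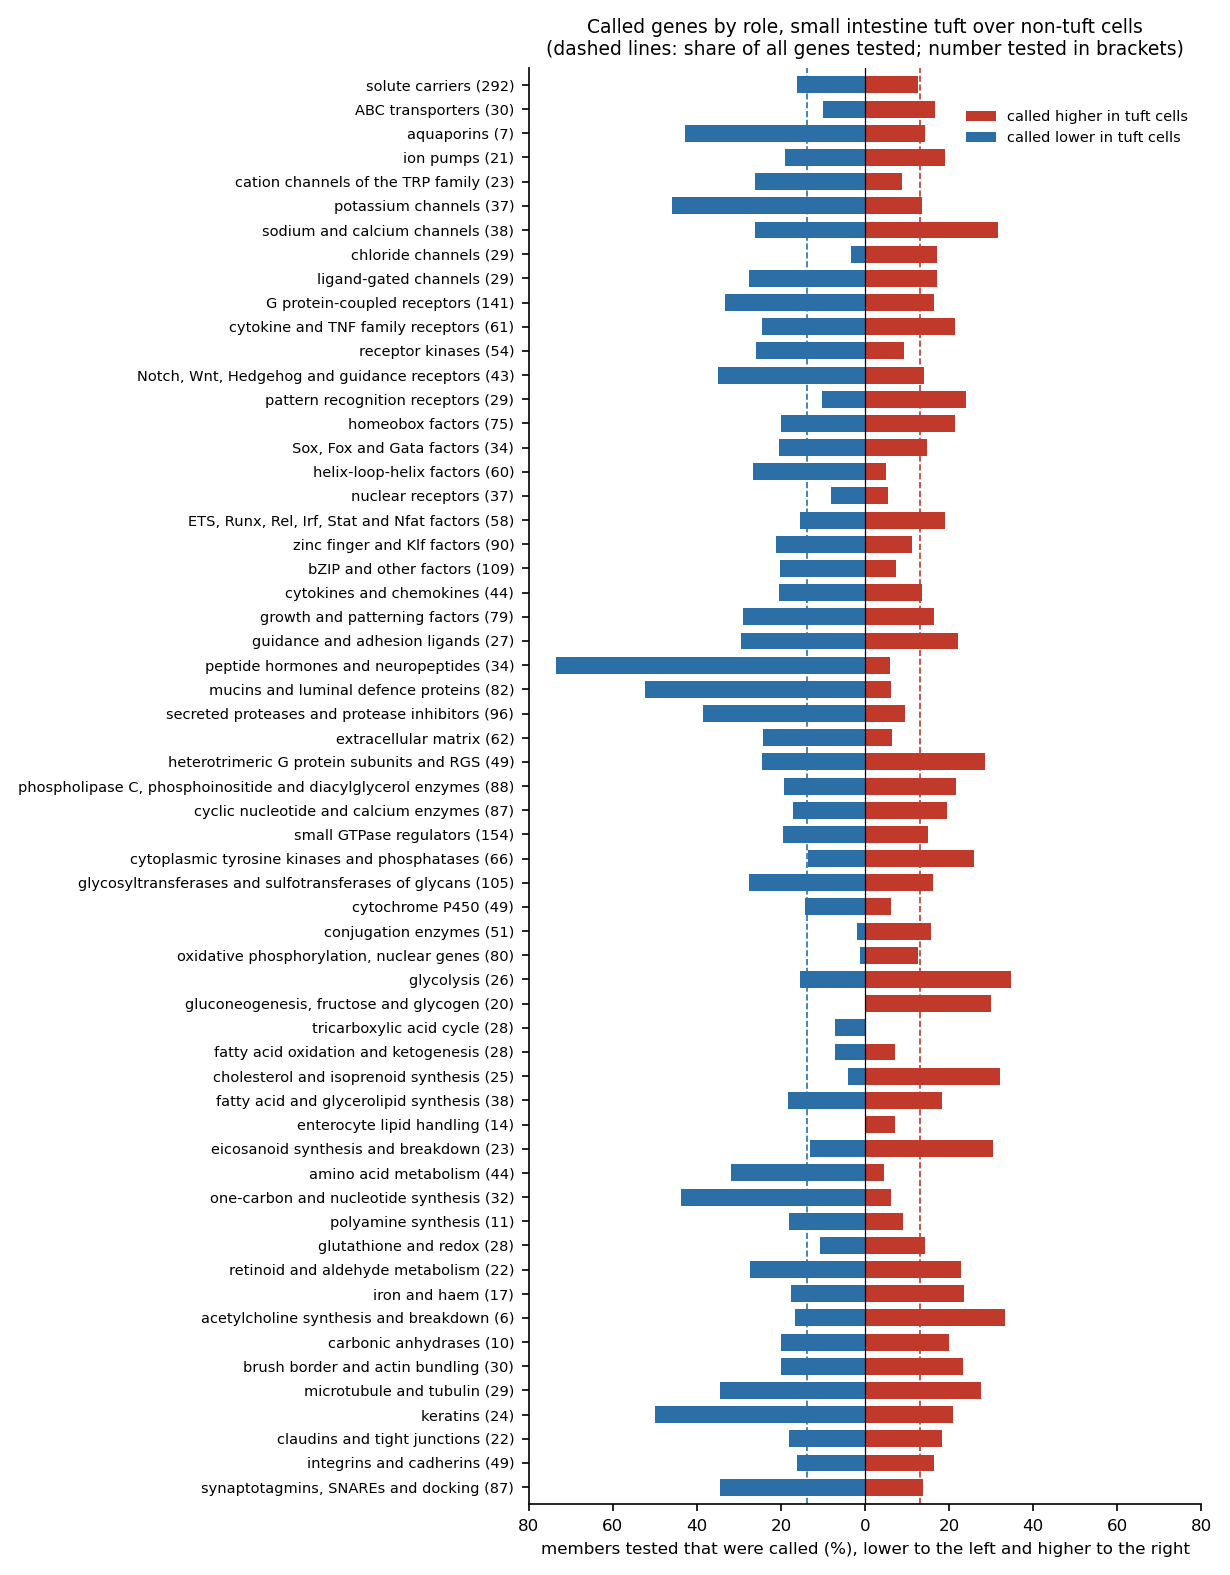
Share of tested members of each gene role called higher (right) and lower (left) in tuft over non-tuft cells, with the number tested in brackets and the share of all genes tested as dashed lines. Peptide hormones and neuropeptides (73.5% lower) and mucins and luminal defence proteins (52.4% lower) lie furthest to the left, glycolysis (34.6% higher) furthest to the right.

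Among transcription factors, 55 of 462 tested (709 in the files) were called higher and 90 lower, with a median log2 fold change of -0.27. Hmx2 and Hmx3 are neighbouring homeobox genes on chromosome 7, known from inner ear and hypothalamus development. Hmx2 (ENSMUSG00000050100, GRCm38 chromosome 7 from 131548773 to 131558014 on the plus strand) was at 69.8, 51.5 and 51.99 CPM in tuft cells, against 0.44, 0.567 and 0.527 CPM in non-tuft cells. Hmx3 (ENSMUSG00000040148, GRCm38 chromosome 7 from 131542867 to 131544925 on the plus strand) was at 31.1, 64.2 and 55 CPM in tuft cells, against 0.759, 0.772 and 0.38 CPM in non-tuft cells. Both were below 1 CPM in every non-tuft library, with log2 fold changes of 6.82 ± 0.23 and 6.31 ± 0.38 (SE; adjusted p = 3.03e-08 and 9.21e-07). Runx1, a factor best known from blood development (ENSMUSG00000022952, GRCm38 chromosome 16 from 92601466 to 92826149 on the minus strand), was at 123.3, 133 and 143 CPM in tuft cells, against 5.50, 6.75 and 6.75 CPM in non-tuft cells, a log2 fold change of 4.39 ± 0.15 (adjusted p = 3.34e-08). Nfatc1, which moves to the nucleus when calcineurin is active, was at 150.3 ± 13.01 CPM in tuft cells, against 15.1 ± 0.303 CPM in non-tuft cells (SD, n = 3 each). Ppp3ca, a catalytic subunit of calcineurin, was also called higher. It was chosen after its value was seen, and was at 152 ± 13.6 CPM in tuft cells, against 36.1 ± 5.82 CPM in non-tuft cells.

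Gfi1b, a repressor of the blood lineages, was also called higher, at 258 ± 22.1 CPM in tuft cells, against 3.93 ± 1.24 CPM in non-tuft cells. Spib, an ETS factor known from M cells and lymphocytes, was at 854 ± 65.3 CPM in tuft cells, against 17.9 ± 2.59 CPM in non-tuft cells. Tcf7l1, a repressor of Wnt target genes, was at 43.7, 40.2 and 41.3 CPM in tuft cells, against 0.85, 1.06 and 1.27 CPM in non-tuft cells, within a narrow range in each group. Sox9, which Paneth and stem cells are also known to use, was at 547 ± 36.3 CPM in tuft cells, against 102 ± 11.9 CPM in non-tuft cells. The Paneth list and 10 of 13 stem cell markers were lower. Prox1 was at 104 ± 24.3 CPM in tuft cells, against 17.02 ± 2.58 CPM in non-tuft cells. The large zinc finger homeobox genes Zfhx2 and Zfhx3 were at 234 and 313 CPM in tuft cells, against 20.2 and 58.04 CPM in non-tuft cells. St18 was at 96.2 ± 16.5 CPM in tuft cells, against 12.3 ± 0.178 CPM in non-tuft cells. Irf7 and Stat2, factors of the interferon response, were at 407 and 264 CPM in tuft cells, against 65.8 and 71.7 CPM in non-tuft cells, log2 fold changes of 2.63 ± 0.14 and 1.88 ± 0.13 (adjusted p = 3.94e-07 and 2.78e-06).

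Factors called lower included those that specify the other secretory lineages. Atoh1, the master factor of secretory cells, was at 3.51, 4.13 and 4.24 CPM in tuft cells, against 89.3, 111 and 166 CPM in non-tuft cells. Spdef and Foxa3, which act in goblet cells, were at 9.23 and 3.45 CPM in tuft cells, against 58.99 and 68.3 CPM in non-tuft cells. Neurod1 and Pax6, factors of enteroendocrine cells, were at 4.11 and 0.782 CPM in tuft cells, against 53.5 and 13.5 CPM in non-tuft cells. Hes1, the target of Notch signalling that holds back Atoh1, was also lower, at 31.2 ± 1.37 CPM in tuft cells, against 98.3 ± 3.86 CPM in non-tuft cells. Helix-loop-helix factors had 16 members called lower and 3 higher among 60 tested (5 higher without non-tuft library 1). All of these stand beside goblet and enteroendocrine marker sums that were 2.37% and 7.29% of the non-tuft level. The immediate early genes Nr4a1 and Egr2 were lower as well, at 27.6 and 24.3 CPM in tuft cells, against 155 and 98.3 CPM in non-tuft cells, with 8 of 18 immediate early genes called lower and 0 higher by edgeR, DESeq2 and voom (1 higher at an unadjusted p under 0.05 by edgeR). With all 21 libraries of the series in the fit, 32 factors were called higher and 38 lower, and Neurod1 and Pax6 were no longer called.

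Pou2f3 belongs to the POU family, whose members bind the octamer ATGCAAAT. Promoters of 250 bases before to 50 after the start site (RefSeq, GRCm38.p6) were available for 1498 of the 2092 genes called higher and were searched for these letters on both strands. The octamer was present in 45 of them (3%), in 28 of 1664 promoters of genes called lower (1.68%), in 120 of 8178 of genes called neither (1.47%) and in 532 of 27025 of all RefSeq genes with a promoter (1.97%). A SPIB motif, AAAG, any base and GGAAGT, was found in 8 promoters of genes called higher (0.534%), 4 of genes called lower (0.24%) and 33 of genes called neither (0.404%). An HNF4 motif, CAAAGTCCA, was found in 9 (0.601%), 4 (0.24%) and 61 (0.746%). A match shows only that the letters are there, and no binding was measured. The promoters printed below are all of genes called higher, and Egr2 and Il33, called lower, held the octamer as well. Shown are 4 promoters with the octamer in capitals, printed along the strand of the gene, from genes described below: the succinate receptor Sucnr1 (chr3:60081619-60081918, plus strand, first base of the match at -48), the kinase Prkcb (chr7:122288875-122289174, plus strand, -70), the lipase Pnpla3 (chr15:84167566-84167865, plus strand, -79, as ATTTGCAT) and the prostaglandin D synthase Hpgds (chr6:65144681-65144980, minus strand, -174).
Sucnr1: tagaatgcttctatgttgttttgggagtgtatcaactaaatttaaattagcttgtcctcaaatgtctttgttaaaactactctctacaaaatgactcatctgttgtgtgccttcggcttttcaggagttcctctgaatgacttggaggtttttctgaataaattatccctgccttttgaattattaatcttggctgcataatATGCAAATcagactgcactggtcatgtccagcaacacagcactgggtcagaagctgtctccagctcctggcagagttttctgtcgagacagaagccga
Prkcb: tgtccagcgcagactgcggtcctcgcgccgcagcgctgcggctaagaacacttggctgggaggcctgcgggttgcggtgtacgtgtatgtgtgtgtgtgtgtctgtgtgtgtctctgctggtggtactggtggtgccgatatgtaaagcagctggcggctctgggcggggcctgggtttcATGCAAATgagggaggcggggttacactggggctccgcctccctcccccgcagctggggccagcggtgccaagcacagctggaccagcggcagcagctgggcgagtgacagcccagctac
Pnpla3: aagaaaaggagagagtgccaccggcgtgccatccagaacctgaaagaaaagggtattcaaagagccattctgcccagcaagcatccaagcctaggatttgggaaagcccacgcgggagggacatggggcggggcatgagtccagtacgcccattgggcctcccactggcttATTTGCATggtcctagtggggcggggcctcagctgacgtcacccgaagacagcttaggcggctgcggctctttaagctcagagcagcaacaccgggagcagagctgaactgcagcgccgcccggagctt
Hpgds: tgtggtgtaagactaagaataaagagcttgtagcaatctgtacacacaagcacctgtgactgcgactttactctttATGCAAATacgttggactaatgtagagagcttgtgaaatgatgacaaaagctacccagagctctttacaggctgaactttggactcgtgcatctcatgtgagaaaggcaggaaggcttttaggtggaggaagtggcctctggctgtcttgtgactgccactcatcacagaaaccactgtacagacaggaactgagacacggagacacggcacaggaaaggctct

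Receptors had 54 members called higher and 94 lower among 328 tested (688 in the files), with a median log2 fold change of -0.35. G protein-coupled receptors made up the largest role, with 23 higher and 47 lower of 141. Ffar3, a receptor for short-chain fatty acids made by gut bacteria (ENSMUSG00000019429, GRCm38 chromosome 7 from 30854330 to 30856178 on the minus strand), was at 532, 599 and 529.8 CPM in tuft cells, against 6.92, 4.26 and 5.03 CPM in non-tuft cells. Its log2 fold change was 6.68 ± 0.22 (SE; adjusted p = 3.03e-08). Ffar2, the paralog that binds the same class of ligand, was called lower, at 2.48 ± 0.999 CPM in tuft cells, against 12.1 ± 1.39 CPM in non-tuft cells. These paralogs moved in opposite directions.

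The next largest increases of this role were in Adgrg2, Gprc5c and Ackr4. Adgrg2, an adhesion receptor, was at 178, 99.1 and 89.3 CPM in tuft cells, against 1.22, 1.36 and 2.02 CPM in non-tuft cells. Gprc5c, which retinoic acid is known to induce, was at 542, 561 and 472 CPM in tuft cells, against 8.68, 7.18 and 8.23 CPM in non-tuft cells. Ackr4, a scavenging receptor for chemokines, was at 133, 112 and 123.1 CPM in tuft cells, against 1.56, 1.97 and 2.58 CPM in non-tuft cells. Tuft library 2 was the highest for Adgrg2, and for Gprc5c and Ackr4 the 3 tuft libraries lay close together. Sucnr1, which senses succinate, was at 20.5, 17.6 and 25.5 CPM in tuft cells, against 0.789, 0.429 and 0.257 CPM in non-tuft cells, a log2 fold change of 5.43 ± 0.40 (adjusted p = 4.25e-06). Adora1, an inhibitory adenosine receptor, and Gabbr1, a subunit of the GABA-B receptor, were at 73.9 and 103 CPM in tuft cells, against 1.80 and 15.4 CPM in non-tuft cells. Among those called lower, the adhesion receptor Adgrg4 was at 12.2 ± 1.73 CPM in tuft cells, against 257 ± 26.6 CPM in non-tuft cells. Ptgdr, a prostaglandin D2 receptor, was at 0.398 ± 0.213 CPM in tuft cells, against 13.2 ± 3.25 CPM in non-tuft cells. Glp1r, Chrm1 and P2ry4, receptors for GLP-1, acetylcholine and nucleotides, averaged 0.557 to 2.93 CPM in tuft cells, against 13.6 to 30.1 CPM in non-tuft cells.

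Cytokine and TNF family receptors had 13 members called higher and 15 lower among 61, with a median of -0.001. Il17rb, a subunit of the receptor for IL-25, was at 684, 650.5 and 533 CPM in tuft cells, against 8.68, 7.84 and 12.4 CPM in non-tuft cells, well above every non-tuft library in each tuft library. Il17ra, its partner subunit, was at 104 ± 15.3 CPM in tuft cells, against 32.2 ± 2.44 CPM in non-tuft cells. Il9r, the receptor for the type 2 cytokine IL-9 (ENSMUSG00000020279, GRCm38 chromosome 11 from 32187541 to 32200279 on the minus strand), was at 29.04, 42.1 and 25.2 CPM in tuft cells, against 0.774, 0.669 and 0.514 CPM in non-tuft cells, a log2 fold change of 5.62 ± 0.29 (SE; adjusted p = 3.45e-07). Csf2ra, a subunit of the GM-CSF receptor, was at 164, 113 and 81.6 CPM in tuft cells, against 15.6, 15.2 and 19.5 CPM in non-tuft cells, with tuft library 2 at the top, beside myeloid and mast cell markers at a summed 23.97 to 48.4 CPM in tuft cells, against 20.2 to 24.9 CPM in non-tuft cells. Il4ra and Il10rb were at 74.5 and 52.9 CPM in tuft cells, against 31.9 and 18.4 CPM in non-tuft cells, while Il13ra1, which joins Il4ra to bind IL-13, was at 68.2 CPM in tuft cells, against 36.8 CPM in non-tuft cells, and missed the fold threshold at 0.89 ± 0.15 (adjusted p = 0.00104). Ifngr1, a subunit of the interferon gamma receptor, was lower, at 50.97 ± 3.56 CPM in tuft cells, against 109.7 ± 14.1 CPM in non-tuft cells. The death receptor Tnfrsf21 was at 7.79 ± 2.09 CPM in tuft cells, against 47.9 ± 3.90 CPM in non-tuft cells.

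Receptor kinases had 5 members called higher and 14 lower among 54. Tek, the angiopoietin receptor of vessels, was at 22.9, 16.7 and 26.6 CPM in tuft cells, against 0.41, 0.412 and 0.625 CPM in non-tuft cells. The 8 endothelial markers summed to 6.07 to 13.0 CPM in tuft cells, against 13.6 to 19.8 CPM in non-tuft cells. Of these 8, 2 were at 0 in all tuft libraries (Cdh5 and Emcn), and the part of such cells was not tested. Epha4, a receptor for ephrins, was at 53.8, 47.4 and 48.5 CPM in tuft cells, against 6.24, 5.82 and 5.38 CPM in non-tuft cells. Egfr, the receptor for epidermal growth factors, was lower at 15.6, 18.3 and 15.8 CPM in tuft cells, against 80.2, 82.2 and 91.4 CPM in non-tuft cells, a log2 fold change of -2.35 ± 0.14 (SE; adjusted p = 8.53e-07). Pattern recognition receptors had 7 members called higher and 3 lower among 29 (1 lower without non-tuft library 1). Clec4a1, a C-type lectin, was at 44.1 ± 4.52 CPM in tuft cells, against 0.949 ± 0.426 CPM in non-tuft cells, beside the myeloid and mast cell sums given above. Nlrc5, an activator of MHC class I genes, was at 12.8 ± 5.18 CPM in tuft cells, against 0.837 ± 0.215 CPM in non-tuft cells. The RNA sensors Dhx58 and Ddx58 were at 23.4 and 86.8 CPM in tuft cells, against 5.07 and 33.1 CPM in non-tuft cells. In a fit of all 21 libraries, 26 receptors were called higher and 26 lower, and Ffar2, Adgrg4, Glp1r, Chrm1, Il4ra, Il10rb, Ifngr1 and Dhx58 were no longer called. With genes filtered at 5 CPM in 3 libraries the counts were 35 and 38.

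**Figure D3:**
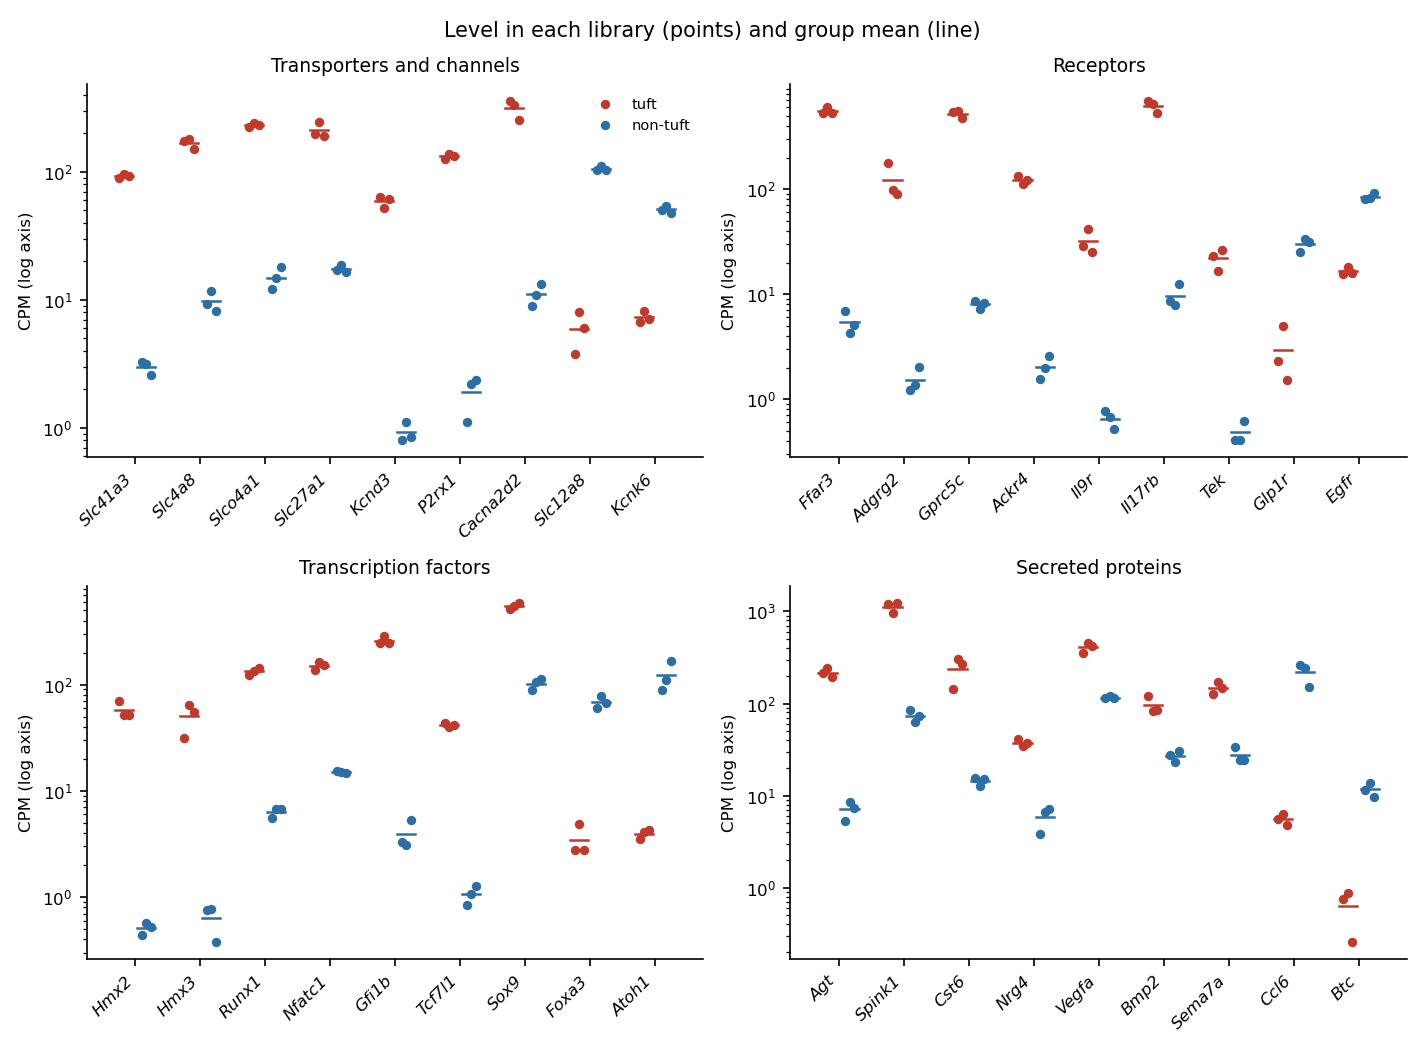
CPM (log axis) of chosen transporters and channels, receptors, transcription factors and secreted proteins in each of the 3 tuft and 3 non-tuft libraries (points) with the group mean (line). The rule that named these genes required groups that do not overlap, which held for 9098 of the 16063 genes tested (56.6%). Hmx2 was at 51.5 to 69.8 CPM in tuft cells, against 0.44 to 0.567 CPM in non-tuft cells. Bmp2 was at 82.4 to 119.8 CPM in tuft cells, against 23.2 to 30.9 CPM in non-tuft cells.

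Second messenger and GTPase signalling genes had 90 members called higher and 83 lower among 444 tested (506 in the files), with a median of -0.017. Plcb2, the phospholipase C of taste cells, was at 749, 881 and 746 CPM in tuft cells, against 8.91, 10.4 and 16.7 CPM in non-tuft cells. Plcg2, an isoform known from immune cells, was at 583 ± 31.2 CPM in tuft cells, against 15.1 ± 3.54 CPM in non-tuft cells. Prkcb, a protein kinase C that diacylglycerol and calcium switch on, was at 21.6, 23.4 and 23.5 CPM in tuft cells, against 0.0607, 0.0343 and 0.6 CPM in non-tuft cells. Adcy5, an adenylyl cyclase that calcium inhibits, was at 143 ± 14.3 CPM in tuft cells, against 2.33 ± 0.915 CPM in non-tuft cells. The class I phosphoinositide 3-kinase genes Pik3r5 and Pik3cg, a regulatory and a catalytic subunit, were at 3430 and 302 CPM in tuft cells, against 43.2 and 5.83 CPM in non-tuft cells. Inpp5d, a phosphatase that acts on their lipid product, rose with them, at 374 ± 38.9 CPM in tuft cells, against 4.61 ± 0.273 CPM in non-tuft cells, a log2 fold change of 6.34 ± 0.16 (SE; adjusted p = 2.38e-08). Cytoplasmic tyrosine kinases and phosphatases had 17 members called higher and 9 lower among 66, with Matk, Fes and Bmx among those higher. Matk was at 1897 ± 263 CPM in tuft cells, against 17.3 ± 4.12 CPM in non-tuft cells. Bmx was at 463 ± 30.1 CPM in tuft cells, against 7.17 ± 0.134 CPM in non-tuft cells. These stand beside T cell markers at a summed 75.5 to 92.9 CPM in tuft cells, against 11.8 to 23.2 CPM in non-tuft cells, and the myeloid and mast cell sums, whose part was not tested. When all 21 libraries were fitted together, 55 genes of the class were called higher and 19 lower, and the 5 CPM filter left 55 called lower.

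Ion channels had 29 members called higher and 42 lower among 156 tested (285 in the files), with a median log2 fold change of -0.26. Sodium and calcium channels, a role that also holds intracellular calcium release channels, had 12 members called higher and 10 lower among 38, and potassium channels had 5 called higher and 17 lower among 37. Itpr2, a calcium release channel of the endoplasmic reticulum (ENSMUSG00000030287, GRCm38 chromosome 6 from 146108299 to 146502223 on the minus strand), was at 504, 612 and 555 CPM in tuft cells, against 21.1, 21.6 and 24.99 CPM in non-tuft cells, a log2 fold change of 4.62 ± 0.16 (SE; adjusted p = 3.03e-08). Cacna2d2, an auxiliary subunit of voltage-gated calcium channels, was at 356, 336 and 257 CPM in tuft cells, against 8.94, 10.9 and 13.3 CPM in non-tuft cells, whereas its paralog Cacna2d1 was lower, at 1.48, 2.09 and 1.53 CPM in tuft cells, against 27.6, 33.1 and 21 CPM in non-tuft cells.

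Among potassium channels, the voltage-gated Kcnd3 was at 63.6, 52.8 and 61.9 CPM in tuft cells, against 0.805, 1.12 and 0.845 CPM in non-tuft cells. Kcnk6, a leak channel, was lower at 7.33 ± 0.765 CPM in tuft cells, against 51.03 ± 3.25 CPM in non-tuft cells. Kcne3, a subunit known from salt-secreting epithelium, was lower at 11.8 ± 5.06 CPM in tuft cells, against 57.6 ± 5.52 CPM in non-tuft cells. Kcnc1 and Kcnh6 were at 0.974 and 1.19 CPM in tuft cells, against 26.96 and 19.1 CPM in non-tuft cells. Of the ligand-gated channels, P2rx1, which opens to ATP, was at 127, 139 and 134 CPM in tuft cells, against 1.11, 2.20 and 2.36 CPM in non-tuft cells. No non-tuft library exceeded 2.36 CPM for P2rx1. Among 23 TRP channels, 2 were called higher, Trpm5 among them, and 6 lower. Trpa1, an irritant sensor known from enterochromaffin cells, was at 1.23 ± 0.287 CPM in tuft cells, against 16.8 ± 3.06 CPM in non-tuft cells. Trpm2 was at 2.03 ± 1.61 CPM in tuft cells, against 33.8 ± 4.93 CPM in non-tuft cells. Ttyh1 was lower, at 3.37, 4.16 and 7.63 CPM in tuft cells, against 87.3, 80.8 and 104 CPM in non-tuft cells. By a fit of all 21 libraries, 16 channels were called higher and 14 lower, and Trpm2 and Ttyh1 were no longer called. The 5 CPM filter left 22 called lower.

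Transporters had 47 members called higher and 57 lower among 350 tested (470 in the files), with a median of 0.102, so that their shares of 13.4% and 16.3% lay near those of all genes. Slc41a3, a magnesium transporter of mitochondria (ENSMUSG00000030089, GRCm38 chromosome 6 from 90604725 to 90646412 on the plus strand), was at 89.6, 96.6 and 92.7 CPM in tuft cells, against 3.25, 3.14 and 2.57 CPM in non-tuft cells, a log2 fold change of 4.96 ± 0.16 (SE; adjusted p = 2.75e-08). Slc4a8, a sodium-driven chloride and bicarbonate exchanger, was at 176, 179.5 and 151 CPM in tuft cells, against 9.31, 11.8 and 8.24 CPM in non-tuft cells. Slco4a1, an organic anion transporter that carries thyroid hormone, was at 226, 241 and 232 CPM in tuft cells, against 12.1, 14.8 and 18.01 CPM in non-tuft cells. Slc27a1, a fatty acid transport protein, was at 199, 248 and 190.2 CPM in tuft cells, against 17.1, 18.7 and 16.5 CPM in non-tuft cells. The 3 tuft libraries of these carriers differed little from each other. Slc2a1, the basal glucose transporter, was at 762 ± 123.2 CPM in tuft cells, against 134 ± 9.29 CPM in non-tuft cells (SD, n = 3 each), a log2 fold change of 2.51 ± 0.16 (adjusted p = 1.42e-06).

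Pumps that move calcium were called in both directions. Atp2a3, which fills the endoplasmic reticulum store, was at 4116, 4297 and 3613 CPM in tuft cells, against 207, 231 and 242 CPM in non-tuft cells. Atp2b2, which expels calcium across the plasma membrane, was at 127, 123.4 and 108 CPM in tuft cells, against 1.59, 0.927 and 1.46 CPM in non-tuft cells. Their log2 fold changes were 4.14 ± 0.16 and 6.48 ± 0.23 (SE; adjusted p = 5.72e-08 and 3.34e-08). Atp2c2, a calcium and manganese pump of the secretory pathway, was lower, at 0.904 ± 0.65 CPM in tuft cells, against 21.3 ± 2.45 CPM in non-tuft cells.

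Carriers called lower were led by Slc12a8, reported as a carrier of nicotinamide mononucleotide in the mouse gut, at 3.78, 8.02 and 6.07 CPM in tuft cells, against 103, 111 and 103 CPM in non-tuft cells, a log2 fold change of -4.15 ± 0.25 (SE; adjusted p = 1.08e-06). Slc29a1, a nucleoside transporter, was at 1.86 ± 1.51 CPM in tuft cells, against 22.6 ± 1.98 CPM in non-tuft cells. Slc18a1, the vesicular monoamine transporter of enterochromaffin cells, was at 6.51 ± 2.61 CPM in tuft cells, against 55.6 ± 4.13 CPM in non-tuft cells, next to the enteroendocrine markers that were lower as a list. Cftr, the chloride channel of the ABC family that drives fluid secretion, was at 40.5, 43.7 and 44.1 CPM in tuft cells, against 129, 129 and 115 CPM in non-tuft cells. Aqp4, a water channel, was at 10.48 ± 4.08 CPM in tuft cells, against 39.3 ± 5.14 CPM in non-tuft cells. Across a joint fit of the 21 libraries, 22 transporters were called higher and 10 lower, and Slc29a1, Slc18a1, Cftr and Aqp4 were no longer called. The 5 CPM filter left 33 called lower.

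Metabolic genes had 82 members called higher and 73 lower among 550 tested (660 in the files), with a median of 0.179. Glycolysis genes had 9 members called higher and 4 lower among 26, at a median log2 fold change of 0.54, and genes of gluconeogenesis, fructose and glycogen had 6 called higher and 0 lower among 20 by edgeR, DESeq2 and voom alike (4 lower at an unadjusted p under 0.05 by edgeR). Pfkfb3, which makes the activator of phosphofructokinase, was at 189.5, 254 and 217 CPM in tuft cells, against 21.1, 16.1 and 25.4 CPM in non-tuft cells, a log2 fold change of 3.40 ± 0.20 (SE; adjusted p = 7.89e-07). Hk1, a hexokinase that sits on mitochondria, was higher at 62.4, 71.2 and 104 CPM in tuft cells, against 13.9, 15.7 and 10.3 CPM in non-tuft cells. Hk2 was lower at 9.84, 18.4 and 7.04 CPM in tuft cells, against 80.4, 84.2 and 111 CPM in non-tuft cells. The groups did not overlap for either hexokinase, as the naming rule required. Aldoc and Pklr, an aldolase and the liver-type pyruvate kinase, were at 72.1 and 276 CPM in tuft cells, against 12.3 and 114 CPM in non-tuft cells. Aldoa and Gapdh were higher too, at 372 and 57.3 CPM in tuft cells, against 120.2 and 25.9 CPM in non-tuft cells, but both have pseudogene copies in the annotation and their counts are uncertain, and Gapdh was not called without tuft library 4. Ldha, lactate dehydrogenase, was at 1084 CPM in tuft cells, against 617 CPM in non-tuft cells, and missed the fold threshold at 0.81 ± 0.14 (adjusted p = 0.00117). Pygl, the glycogen phosphorylase of liver (ENSMUSG00000021069, GRCm38 chromosome 12 from 70190811 to 70231488 on the minus strand), was at 232, 251 and 226 CPM in tuft cells, against 3.86, 4.70 and 6.00 CPM in non-tuft cells, a log2 fold change of 5.60 ± 0.20 (adjusted p = 3.34e-08). The glycogen synthase Gys1 was at 21.4 ± 3.79 CPM in tuft cells, against 7.88 ± 0.893 CPM in non-tuft cells, so genes of both breakdown and synthesis were higher.

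Genes of the tricarboxylic acid cycle had 0 members called higher and 2 lower among 28 by edgeR, DESeq2 and voom alike, with a median of -0.027. At an unadjusted p under 0.05 by edgeR, 6 were higher and 7 lower. Without tuft library 2, 1 was called higher, and without non-tuft library 1 or tuft library 3, 1 was called lower. Nuclear genes of oxidative phosphorylation had 10 members called higher and 1 lower among 80 (0 lower without any 1 of the non-tuft libraries), with a median of 0.397. That is 12.5% called higher, against 13% of all genes tested, and 69 of the 80 were called neither way. The share of mitochondrially encoded transcripts was 24.1 to 33.5% in tuft libraries, against 18.6 to 23.7% in non-tuft libraries, and its part in these values was not tested.

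In lipid metabolism, cholesterol and isoprenoid synthesis genes had 8 members called higher and 1 lower among 25. Fdps, which makes farnesyl diphosphate, was at 40.5, 49.4 and 40.2 CPM in tuft cells, against 10.2, 10.1 and 11.9 CPM in non-tuft cells. Fdft1, which joins these units into squalene, was at 329.5 ± 95.6 CPM in tuft cells, against 119.7 ± 15.7 CPM in non-tuft cells. Pnpla3, a lipase of lipid droplets (ENSMUSG00000041653, GRCm38 chromosome 15 from 84167837 to 84187236 on the plus strand), was at 68.8, 95.99 and 55.6 CPM in tuft cells, against 1.06, 1.202 and 0.49 CPM in non-tuft cells. Acacb, the acetyl-CoA carboxylase of the mitochondrial surface, was at 77.2, 127 and 129.7 CPM in tuft cells, against 2.94, 3.66 and 4.98 CPM in non-tuft cells. Their log2 fold changes were 6.34 ± 0.36 and 4.84 ± 0.28 (SE; adjusted p = 6.27e-07 and 6.54e-07). Mgll, which cleaves monoacylglycerols, was at 143 ± 15.4 CPM in tuft cells, against 18.8 ± 5.23 CPM in non-tuft cells. Lpcat4, which adds acyl chains to lysophospholipids, was at 376 ± 39.4 CPM in tuft cells, against 62.8 ± 15.98 CPM in non-tuft cells. Fads1 and Fads2, the desaturases on the way to arachidonic acid, were lower, at 23.4 and 18.5 CPM in tuft cells, against 71.7 and 73.9 CPM in non-tuft cells. Eicosanoid genes had 7 members called higher and 3 lower among 23 (5 lower without tuft library 2 or 3). Alox5 and Ltc4s, of leukotriene synthesis, were at 862 and 118 CPM in tuft cells, against 7.90 and 1.71 CPM in non-tuft cells. Hpgds, which makes prostaglandin D2, was at 102 ± 23.2 CPM in tuft cells, against 3.23 ± 0.788 CPM in non-tuft cells.

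Aldehyde and retinoid genes had 5 members called higher and 6 lower among 22. Aldh2, the mitochondrial aldehyde dehydrogenase (ENSMUSG00000029455, GRCm38 chromosome 5 from 121566027 to 121593824 on the minus strand), was at 2750, 2829 and 2633 CPM in tuft cells, against 112, 132 and 133 CPM in non-tuft cells, a log2 fold change of 4.45 ± 0.16 (SE; adjusted p = 3.34e-08). Adh1, an alcohol dehydrogenase that also oxidises retinol, was at 4436, 3176 and 3266 CPM in tuft cells, against 280.3, 385 and 303 CPM in non-tuft cells, a log2 fold change of 3.49 ± 0.20 (adjusted p = 7.59e-07). Rbp2 and Fabp1, binding proteins of absorptive cells, were higher at 3213 and 4933 CPM in tuft cells, against 1391 and 1032 CPM in non-tuft cells, beside the enterocyte list at a median of 0.63. Car7, a cytosolic carbonic anhydrase, was at 127 ± 44.9 CPM in tuft cells, against 1.05 ± 0.186 CPM in non-tuft cells, while Car8 and Car12 were lower at 3.68 and 6.61 CPM in tuft cells, against 44 and 25.6 CPM in non-tuft cells. Azin2, an antizyme inhibitor that protects ornithine decarboxylase, was at 19.4, 15.2 and 22.2 CPM in tuft cells, against 1.82, 2.56 and 0.686 CPM in non-tuft cells. Odc1 itself was at 22.99 CPM in tuft cells, against 42.1 CPM in non-tuft cells, and missed the fold threshold at -0.87 ± 0.13 (adjusted p = 5.24e-04).

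Genes of amino acid metabolism had 14 members called lower and 2 higher among 44, at a median log2 fold change of -0.42. Those of one-carbon and nucleotide synthesis had 14 members called lower and 2 higher among 32, at a median of -0.86. Ido1, which degrades tryptophan, was at 12.2, 9.69 and 12.3 CPM in tuft cells, against 376, 407 and 359.8 CPM in non-tuft cells, a log2 fold change of -5.06 ± 0.16 (SE; adjusted p = 2.71e-08). Tph1, which turns tryptophan into serotonin in enterochromaffin cells, was at 13.1 ± 1.76 CPM in tuft cells, against 224 ± 20.5 CPM in non-tuft cells. Glul, glutamine synthetase, was at 71.4 ± 4.43 CPM in tuft cells, against 260.3 ± 22.6 CPM in non-tuft cells. Cps1, the first enzyme of the urea cycle, was at 375 ± 8.21 CPM in tuft cells, against 1244 ± 83.7 CPM in non-tuft cells. Mthfd1 and Mthfd2, of the folate cycle, were at 14.2 and 4.24 CPM in tuft cells, against 48.7 and 17.4 CPM in non-tuft cells, beside proliferation markers that summed to 534.9 to 761.7 CPM in tuft cells, against 2030 to 2677 CPM in non-tuft cells. Folr1, a folate receptor, went against its list at 232, 232 and 189 CPM in tuft cells, against 1.69, 0.841 and 2.58 CPM in non-tuft cells. Gpx3, a secreted glutathione peroxidase, was lower at 12.5 ± 3.86 CPM in tuft cells, against 147 ± 23.7 CPM in non-tuft cells. In a fit of all 21 libraries, 36 metabolic genes were called higher and 10 lower, and Pklr, Gapdh, Gys1, Fads1, Fads2, Cps1, Mthfd1, Mthfd2, Azin2, Rbp2 and Car12 were no longer called.

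**Figure D4:**
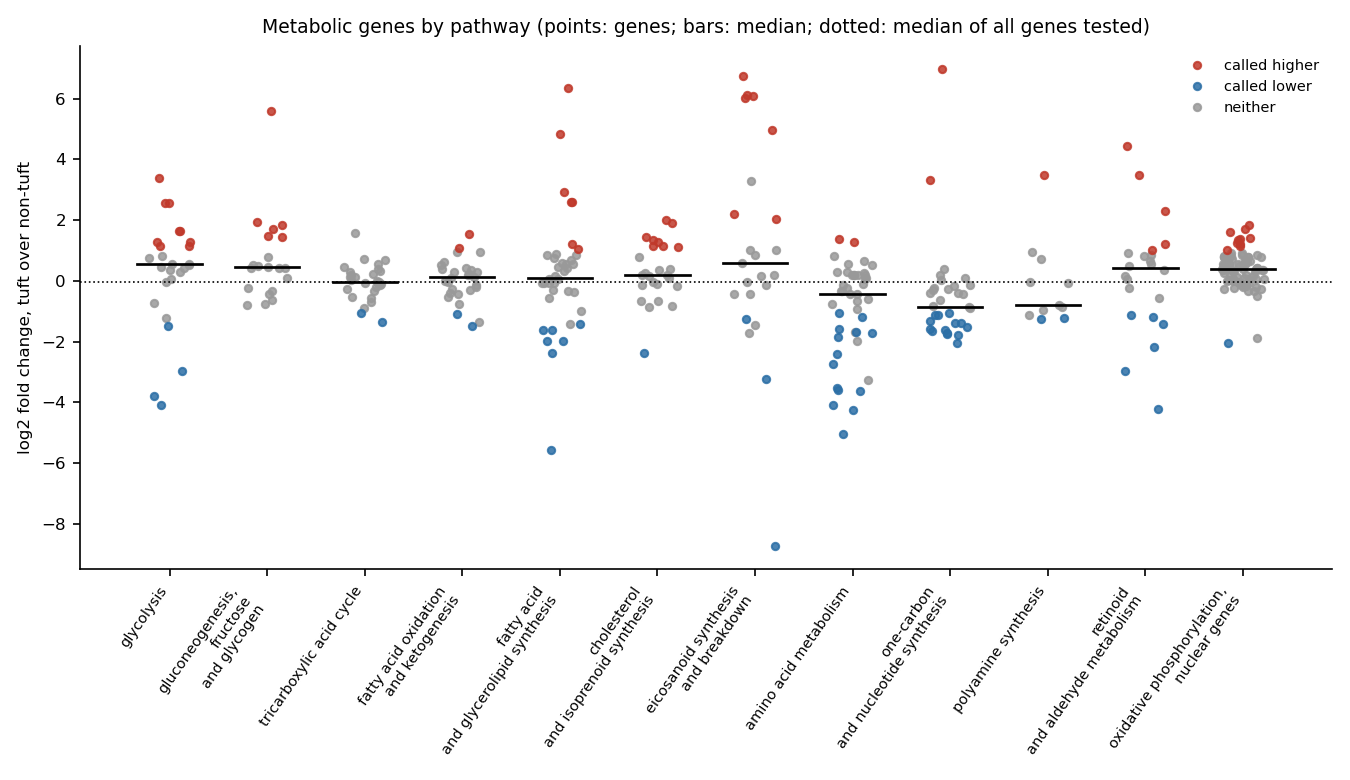
Log2 fold change of each tested gene in 12 metabolic roles, with the median of the role (bar) and of all genes tested (dotted line at -0.032). Among the 12 roles drawn, the medians of glycolysis (0.54) and eicosanoid genes (0.58) lie highest and that of one-carbon and nucleotide synthesis (-0.86) lowest, and the point near -9 is a gene with no count in tuft cells whose fitted value depends on the prior count.

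Secreted proteins had 160 members called lower and 45 higher among 424 tested (970 in the files), with a median log2 fold change of -0.88. Peptide hormones and neuropeptides had 25 members called lower and 2 higher among 34 (1 higher without non-tuft library 1 or 2), and mucins and luminal defence proteins had 43 called lower and 5 higher among 82. Cck and Gip, hormones of enteroendocrine cells, were at 202 and 17.9 CPM in tuft cells, against 4292 and 439 CPM in non-tuft cells. The Paneth protease Mmp7 was at 4.43 ± 2.34 CPM in tuft cells, against 229.7 ± 19.7 CPM in non-tuft cells. These were genes of lineages whose marker lists were lower as a whole. Defensin genes are near-identical copies with uncertain counts.

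Against that direction, Agt, which encodes angiotensinogen, the precursor of the angiotensin peptides (ENSMUSG00000031980, GRCm38 chromosome 8 from 124556534 to 124569706 on the minus strand), was at 214, 241 and 193 CPM in tuft cells, against 5.30, 8.63 and 7.33 CPM in non-tuft cells, a log2 fold change of 4.93 ± 0.21 (SE; adjusted p = 1.01e-07). Spink1, a trypsin inhibitor, was at 1188, 967 and 1222 CPM in tuft cells, against 83.99, 63.7 and 72.9 CPM in non-tuft cells, a log2 fold change of 3.94 ± 0.17 (adjusted p = 1.17e-07). Cst6, an inhibitor of cysteine proteases, was at 144, 308 and 266 CPM in tuft cells, against 15.7, 12.6 and 15.04 CPM in non-tuft cells, lowest in tuft library 2. Adamts12, a metalloprotease, and Adamtsl4, a matrix protein of the same family, were at 30.9 and 49.5 CPM in tuft cells, against 0.384 and 2.75 CPM in non-tuft cells. The protease inhibitor A2ml1 was at 44.9 ± 10.8 CPM in tuft cells, against 2.16 ± 0.397 CPM in non-tuft cells.

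Growth and patterning factors had 13 members called higher and 23 lower among 79. Nrg4, a ligand of the ErbB4 receptor, was at 41.2, 34.3 and 37.2 CPM in tuft cells, against 3.86, 6.66 and 7.22 CPM in non-tuft cells. Vegfa, the vascular growth factor, was at 354, 455 and 416 CPM in tuft cells, against 113, 119 and 116 CPM in non-tuft cells. Bmp2, a bone morphogenetic protein, was at 95.4 ± 21.1 CPM in tuft cells, against 27.2 ± 3.87 CPM in non-tuft cells. Inhbc, an activin subunit, was at 16.3, 11.4 and 10.96 CPM in tuft cells, against 0.0456, 0 and 0.269 CPM in non-tuft cells. Btc, a ligand of Egfr, was lower, at 0.76, 0.867 and 0.259 CPM in tuft cells, against 11.6, 13.6 and 9.78 CPM in non-tuft cells. Ccn1, a matrix-associated signalling protein, was at 29 ± 3.22 CPM in tuft cells, against 211 ± 30.2 CPM in non-tuft cells. Among cytokines, lymphotoxin beta (Ltb) was at 31.8, 22.8 and 16.7 CPM in tuft cells, against 0.228, 0.0687 and 0.71 CPM in non-tuft cells. Tnf was at 21.3, 17.3 and 18.04 CPM in tuft cells, against 1.27, 1.73 and 6.55 CPM in non-tuft cells. T cell markers were also called higher, in 9 of 12 (6 to 9 with 1 library left out). Their sum was 75.5, 81.1 and 92.9 CPM in tuft libraries 2, 3 and 4, and their part was not tested. Il25, the reporter gene, was at 21.5, 23.9 and 19.6 CPM in tuft cells, against 0.137, 0.189 and 0.38 CPM in non-tuft cells, as the sort required. Ccl6, a chemokine, was lower, at 5.58, 6.38 and 4.84 CPM in tuft cells, against 265, 244 and 153 CPM in non-tuft cells.

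Guidance and adhesion ligands had 6 members called higher and 8 lower among 27, with a median of -0.068 (5 lower without non-tuft library 2 or 3). Semaphorins, signals in nerve and immune guidance, were called in both directions. Sema7a was at 126, 169.5 and 146 CPM in tuft cells, against 33.6, 24.5 and 24.6 CPM in non-tuft cells. Sema4g and Sema4a were at 1510 and 580.4 CPM in tuft cells, against 439 and 177 CPM in non-tuft cells. Sema5a was lower, at 53.5, 45.9 and 44.2 CPM in tuft cells, against 116, 106 and 123.4 CPM in non-tuft cells. Sema4d was lower at 5.33 ± 2.52 CPM in tuft cells, against 11.5 ± 0.254 CPM in non-tuft cells, a call lost when any 1 library other than tuft library 4 was left out. Extracellular matrix genes had 4 members called higher and 15 lower among 62, with a median of -0.559 (23 lower without tuft library 2). Of these, Col15a1, a collagen of basement membranes, was at 406, 452 and 339.7 CPM in tuft cells, against 1.29, 1.29 and 6.41 CPM in non-tuft cells. Col9a3, a cartilage collagen, was at 81.95 ± 6.65 CPM in tuft cells, against 1.299 ± 0.448 CPM in non-tuft cells. Agrn, which organises synapses of nerve on muscle, was at 291 ± 41.1 CPM in tuft cells, against 102 ± 7.10 CPM in non-tuft cells. Thbs1 was lower, at 17.5 ± 1.60 CPM in tuft cells, against 213 ± 31.01 CPM in non-tuft cells. The 12 stromal and muscle markers summed to 4.78 to 5.51 CPM in tuft cells, against 11.4 to 13.5 CPM in non-tuft cells, with Col1a2, Col3a1, Lum and Pdgfra at 0 in all tuft libraries. When all 21 libraries were fitted together, 23 secreted proteins were called higher and 94 lower, and Nrg4, Inhbc, Sst, Sema5a and Sema4d were no longer called. The 5 CPM filter left 90 called lower.

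Surface and cytoskeleton genes had 30 members called higher and 40 lower among 152 tested (226 in the files), with a median of -0.092. Keratins had 5 members called higher and 12 lower among 24. Krt18 was at 12810, 11730 and 12080 CPM in tuft cells, against 606, 692 and 799 CPM in non-tuft cells. Krt23 was at 224 ± 39.8 CPM in tuft cells, against 36.9 ± 4.37 CPM in non-tuft cells. Krt7 was lower at 15.4, 14.5 and 17.2 CPM in tuft cells, against 150.2, 178 and 133 CPM in non-tuft cells. Krt19 was lower at 400 ± 80.9 CPM in tuft cells, against 1172 ± 139.7 CPM in non-tuft cells. Genes of the brush border and actin bundling had 7 members called higher and 6 lower among 30, with a median of 0.42. The actin binders Avil and Espn were at 2216 and 562 CPM in tuft cells, against 27.4 and 36.4 CPM in non-tuft cells. Cdhr5 and Cdhr2, the cadherins that link microvilli, were at 9575 and 2286 CPM in tuft cells, against 1534 and 441 CPM in non-tuft cells. Baiap2l2, which binds membranes and actin, was lower at 69.4 ± 4.54 CPM in tuft cells, against 182 ± 17.2 CPM in non-tuft cells. Microtubule and tubulin genes had 8 members called higher and 10 lower among 29, with a median of -0.068. Map1a, a microtubule-associated protein of neurons, was at 330.3, 332 and 305 CPM in tuft cells, against 10.3, 10.6 and 9.13 CPM in non-tuft cells, a log2 fold change of 5.01 ± 0.14 (SE; adjusted p = 2.38e-08). The tubulin gene Tuba1a and the tubulin acetyltransferase Atat1 were at 410.3 and 112 CPM in tuft cells, against 20.8 and 22.8 CPM in non-tuft cells. Map1b, a relative of Map1a, and the tubulin gene Tubb2a were lower, at 3.38 and 6.72 CPM in tuft cells, against 31.8 and 27.9 CPM in non-tuft cells. Tubulin genes are close copies, so the counts of Tuba1a and Tubb2a are uncertain. Cldn4, a claudin of tight junctions, was lower, at 20.9, 17.3 and 21.4 CPM in tuft cells, against 168, 175 and 473 CPM in non-tuft cells, with non-tuft library 3 far above the other non-tuft libraries.

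Glycosylation enzymes had 17 members called higher and 29 lower among 105 tested (145 in the files), with a median of -0.333. Fut2, which adds the fucose of blood group H antigens, was at 318, 249.9 and 249.3 CPM in tuft cells, against 12.2, 13.2 and 10.8 CPM in non-tuft cells. St6galnac6, a sialyltransferase of gangliosides, was at 111, 113 and 117 CPM in tuft cells, against 4.81, 4.27 and 1.45 CPM in non-tuft cells. A4galt, which makes the glycolipid Gb3, was at 37.6 ± 2.57 CPM in tuft cells, against 0.711 ± 0.423 CPM in non-tuft cells. The mucin O-glycan enzymes Galnt12 and Gcnt3 were lower, at 2.62 and 11.4 CPM in tuft cells, against 49.1 and 219 CPM in non-tuft cells. The sulfotransferase Chst4 was at 8.55 ± 2.22 CPM in tuft cells, against 94.7 ± 5.60 CPM in non-tuft cells, beside goblet markers at 2.37% of their non-tuft sum. Genes of vesicle release had 12 members called higher and 30 lower among 87 tested (114 in the files), with a median of -0.375. The regulated-exocytosis genes Snap25 and Sytl2 were at 13.6 and 6.52 CPM in tuft cells, against 134 and 187 CPM in non-tuft cells. Unc13d and Vamp8, which act in granule release of blood cells, were higher, at 23.6 and 176 CPM in tuft cells, against 2.05 and 59.01 CPM in non-tuft cells. By a fit of all 21 libraries, 19 surface genes and 12 glycosylation enzymes were called lower, and 3 vesicle genes higher and 11 lower, and Baiap2l2, Tubb2a and Vamp8 were no longer called. The 5 CPM filter left 18 surface genes, 17 glycosylation enzymes and 19 vesicle genes called lower.

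In several gene families of the classes above, the most abundant member differed between the groups. The 10 families shown were chosen after the values were seen, so the shares are a description with no test, and each share is of the family's summed CPM per kilobase of exon. Itpr2 made up 70.5 ± 2.40% of the inositol trisphosphate receptor level in tuft cells, against 7.03 ± 1.45% in non-tuft cells (SD, n = 3 each). Itpr3, whose own level was 126 CPM in tuft cells, against 169.9 CPM in non-tuft cells and was not called, made up 26.3 ± 2.56% in tuft cells, against 85.03 ± 2.29% in non-tuft cells. The phospholipase C beta level was 162 ± 16.3 CPM per kilobase in tuft cells, against 55.8 ± 4.57 CPM per kilobase in non-tuft cells. Plcb2 held 74 ± 0.664% of it in tuft cells, against 3.21 ± 0.831% in non-tuft cells, and Plcb3, not called, held 25.8 ± 0.715% in tuft cells, against 92.4 ± 0.302% in non-tuft cells. In both of these families the summed level was larger in tuft cells, and the member that led in non-tuft cells was still present in tuft cells.

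Among calcium pumps, the endoplasmic reticulum family summed to 778 ± 66.7 CPM per kilobase in tuft cells, against 71.1 ± 2.78 CPM per kilobase in non-tuft cells, with Atp2a3 at 97.6 ± 0.279% in tuft cells, against 60.4 ± 3.49% in non-tuft cells. Atp2b2 held 55.9 ± 4.75% of the plasma membrane pumps in tuft cells, against 2.25 ± 0.682% in non-tuft cells. Pygl held 88.9 ± 1.71% of the glycogen phosphorylases in tuft cells, against 9.03 ± 2.52% in non-tuft cells, where Pygb, the brain form, held 88.97 ± 2.81%. Acacb held 92.8 ± 1.88% of the acetyl-CoA carboxylases in tuft cells, against 40.6 ± 6.42% in non-tuft cells.

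The hexokinases summed to 38.3 ± 9.42 CPM per kilobase in tuft cells, against 36.7 ± 0.846 CPM per kilobase in non-tuft cells. Hk1 held 24.4 ± 3.08% in tuft cells, against 4.25 ± 0.802% in non-tuft cells, Hk2 5.36 ± 2.61% in tuft cells, against 42.1 ± 8.76% in non-tuft cells, and Hkdc1, not called, 70.1 ± 1.81% in tuft cells, against 51.01 ± 8.52% in non-tuft cells. Hkdc1 was the largest member in every library except non-tuft library 3, where Hk2 held 52.1% and Hkdc1 41.4%. The core 2 branching enzymes of O-glycans summed to 22.2 ± 1.28 CPM per kilobase in tuft cells, against 60.1 ± 1.19 CPM per kilobase in non-tuft cells. Gcnt1 held 46.2 ± 4.12% in tuft cells, against 0.283 ± 0.0914% in non-tuft cells, Gcnt4 41.7 ± 3.24% in tuft cells, against 15.02 ± 1.18% in non-tuft cells, and Gcnt3 12.02 ± 2.25% in tuft cells, against 84.7 ± 1.11% in non-tuft cells. Gcnt1 and Gcnt4 were close in tuft cells, with Gcnt4 the larger in tuft library 2 (45.4% and 42.8%). Map1a held 91.5 ± 1.36% of the microtubule-associated protein 1 family in tuft cells, against 21.7 ± 4.32% in non-tuft cells, where Map1b held 51.9 ± 3.57%. Of the simple epithelial keratins, Krt18 held 88.8 ± 0.827% in tuft cells, against 26.1 ± 0.81% in non-tuft cells, and Krt19 2.25 ± 0.372% in tuft cells, against 33.96 ± 0.561% in non-tuft cells. Krt8, the partner of Krt18, has a pseudogene copy in the annotation and its share is uncertain. The shares of Krt18 and Krt19 are of a sum that includes Krt8 and are uncertain to that extent.

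**Figure D5:**
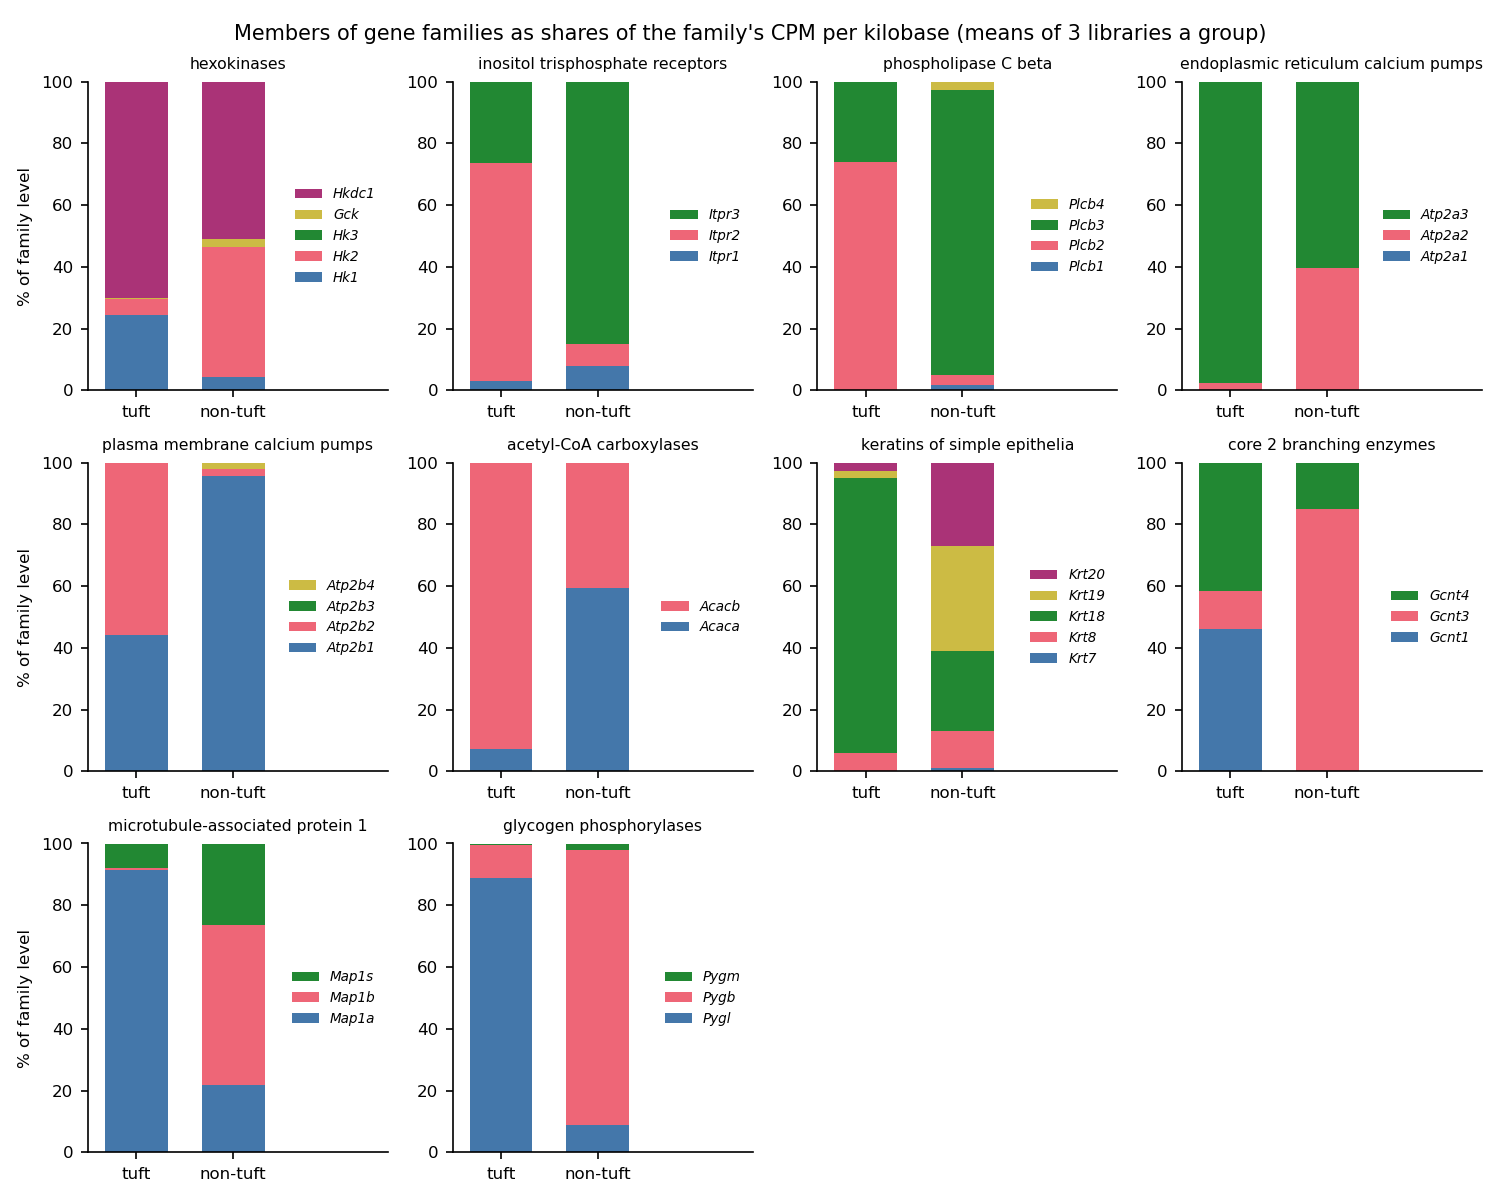
Members of 10 gene families as percent of the family's summed CPM per kilobase of exon, means of 3 tuft and 3 non-tuft libraries. The leading member differs between the groups for the inositol trisphosphate receptors (Itpr2 in tuft, Itpr3 in non-tuft cells), phospholipase C beta (Plcb2, Plcb3), plasma membrane calcium pumps (Atp2b2, Atp2b1), acetyl-CoA carboxylases (Acacb, Acaca), keratins (Krt18, Krt19), microtubule-associated proteins (Map1a, Map1b) and glycogen phosphorylases (Pygl, Pygb). It also differs for the core 2 branching enzymes, led by Gcnt3 in non-tuft cells, by Gcnt1 in tuft libraries 3 and 4 and by Gcnt4 in tuft library 2.

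Ranked by level per kilobase of exon in tuft cells, the 20 highest genes among those called higher mixed absorptive, structural and signalling genes. Fabp1 and Krt18 led at 8920 and 8496 CPM per kilobase in tuft cells, against 1867 and 486 CPM per kilobase in non-tuft cells. Sh2d6, an SH2 domain protein, followed at 6741 in tuft cells, against 61.5 CPM per kilobase in non-tuft cells. Cd24a, a surface glycoprotein used to sort intestinal secretory cells, was at 2114 in tuft cells, against 159 CPM per kilobase in non-tuft cells. S100a11, a calcium-binding protein, was at 1703 in tuft cells, against 136 CPM per kilobase in non-tuft cells. Spink1 and Adh1 were also in this list, as were the calcium pump Atp2a3, the ion channel-like protein Tmem176b and the kinase subunit Pik3r5. Rn7sk, a small nuclear RNA that is not polyadenylated, was listed at 1377 in tuft cells, against 91.3 CPM per kilobase in non-tuft cells. B2m and Vil1, with folds just above 2, lost their calls when single libraries were left out, B2m without tuft library 2 or 4 or non-tuft library 2 or 3, and Vil1 without tuft library 4 or non-tuft library 1.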

How the data were processed

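Poly(A) RNA of sorted cells was amplified to cDNA (NuGEN Ovation V2) and made into libraries with Nextera XT, per the labels' protocols. The authors deposited raw read counts per Ensembl gene for each library. STAR, DESeq2 and the build GRCm38 are named in the submitters' processing notes, with versions and settings not given in the sources used here. Whether counting used the strand is not given either, so overlapping and antisense genes are uncertain, as are near-identical copies. Of 43432 gene IDs, 42548 matched GENCODE M21 and the 884 others held 0.0986% of counts.

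The 6 libraries were fitted with edgeR 4.0.16 (R 4.3.3, quasi-likelihood test, TMM scaling, filterByExpr, Benjamini-Hochberg adjustment) with group as the only term, and the procedure was tested on simulated data. Called means an adjusted p under 0.05 and a log2 fold change of at least 1 in size. SE is the log2 fold change divided by the square root of F, an approximation. CPM per kilobase divides by the exon union. Alternatives used DESeq2 1.42.0 and limma 3.58.1. Tables and figures used Python 3.11.15, pandas 2.3.3, numpy 2.4.6 and matplotlib 3.10.9. Amplified reads without molecular identifiers are not independent molecules, so spread is read between libraries. The labels give 1 mouse a library.

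Genes were named by a rule: for each of 77 roles, up to 5 called genes each way with the largest change whose groups did not overlap and whose higher group averaged 10 CPM or more; the 20 called-higher genes with the highest level per kilobase in tuft cells; marker and short textbook lists; and Dclk1, Trpm5 and Pou2f3. No predicted gene, antigen receptor segment, Y-linked gene or Xist was named. Ppp3ca, Zfhx3, Stat2, Plcg2, Pik3cg, Il4ra, Il10rb, Il13ra1, Ffar2, Adora1, Gabbr1, Slc2a1, Itpr3, Plcb3, Gcnt4 and Atp2b1 fall outside the rule and were chosen after their values were seen. The comparison, the gene lists and the roles were chosen with earlier results of these data known. Promoter sequences are from RefSeq, GRCm38.p6. A few genes that the rule names are not reported here.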

Additional observations from a re-analysis of the deposited data

How the results depend on the processing

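Under DESeq2, RLE scaling, no filter on low counts, removal of mitochondrial transcripts and voom with sample weights, every total and class count stayed within 1.5 times its value in the report, and of the 432 genes the rule names 0 to 4 lost their call and 0 reversed. With all 21 libraries in 1 fit, which share 1 estimate of the spread across 5 tissues, 785 genes were called higher and 539 lower, of which 779 and 459 were also called with 6 libraries. The class counts in that fit were 22 higher and 10 lower for transporters, 16 and 14 for ion channels, 26 and 26 for receptors, 32 and 38 for transcription factors, 23 and 94 for secreted proteins, 55 and 19 for signalling and 36 and 10 for metabolism. There, 12 glycosylation enzymes and 19 surface genes were called lower, and 3 vesicle genes higher and 11 lower. In it, 178 of the 432 named genes lost their call. A filter of 5 CPM in 3 libraries, which tests fewer genes, called 1411 genes lower, among them 33 transporters, 22 ion channels, 38 receptors, 90 secreted proteins, 55 signalling genes, 17 glycosylation enzymes, 18 surface genes and 19 vesicle genes, and 35 receptors higher. Leaving out 1 library at a time gave 1888 to 2182 genes higher and 1920 to 2569 lower, and 7 to 13 of the named genes lost their call. With the replicate number as a block, 1837 genes were called higher and 1930 lower, and 14 of the named genes lost their call. Number 1 occurs only in non-tuft and number 4 only in tuft libraries, so the comparison in that fit rests on replicates 2 and 3. Replicate numbers 2 and 3 occur in both groups, and the deviations of same-numbered libraries correlated at -0.0721 and -0.0264. Libraries of unlike number correlated at -0.0539 to 0.076. With so few libraries this cannot tell whether same-numbered libraries share a mouse, and the pairing remains unknown. With 3 libraries a group, the spread of a gene rests mostly on the estimate shared across genes, and genes under about 1 CPM are the least certain.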
